A study of Homo sapiens with 10 samples.

Results

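The 10 genes described here encode the core machinery that takes a cell from G1 into S phase: the D-type cyclins CCND1 and CCND3, the E-type cyclins CCNE1 and CCNE2, the kinases CDK2, CDK4 and CDK6, the kinase inhibitor CDKN1B (p27), and the transcription factors E2F1 and E2F2. They were taken by gene name from a table of 32738 genes, and all 10 were among the 12733 genes with enough counts to be tested. The cells were HepG2, a human hepatoma line, cultured for 17 h either in regular growth medium (untreated) or in medium with 2 µg/ml tunicamycin. Tunicamycin blocks N-linked glycosylation, so that unfolded glycoproteins accumulate in the endoplasmic reticulum (ER) and cause ER stress. Each condition had 5 libraries from experiments performed on separate days, and all libraries came from this one cell line, with no other genotype or dose.

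In early G1, D-type cyclins bind CDK4 and CDK6 and start to phosphorylate the retinoblastoma protein, which holds E2F factors inactive. E2F1 and E2F2 then activate genes for cyclin E and for DNA synthesis, and cyclin E with CDK2 completes the phosphorylation of the retinoblastoma protein. p27 binds cyclin and CDK complexes and inhibits above all those that contain CDK2. Much of this control acts on proteins, through phosphorylation and degradation, which RNA counts do not measure.

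Libraries held 4242538 to 4888292 counts in untreated cells and 2234682 to 5029864 in tunicamycin-treated cells, with the lowest totals in tunicamycin replicates 5 (2234682) and 4 (3567316). Counts were scaled to a common effective library size and are given as normalized counts. Because the library kit reads the 3′ end of each mRNA, a transcript gives about 1 fragment whatever its length, and counts were not divided by length. All 5 genes of an ER stress check list were higher with tunicamycin, with a median log2 fold change of 2.78. Of 7 tested hepatocyte markers, 4 were lower and 3 were not called, and their summed normalized counts ranged from 60860 to 76600 in untreated and from 47490 to 53410 in treated libraries, whose part in the results below was not tested. Of 8 markers of other cell types, 7 were found in the table and 0 had enough counts to be tested, with at most 5 counts for any of them over all 10 libraries.

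Tunicamycin lowered 5 of the 10 genes: E2F2, E2F1, CDK2, CCNE1 and CCND1, in order of the size of the fall. The other 5, which were CCND3, CCNE2, CDK4, CDK6 and CDKN1B, did not pass an adjusted p of 0.05 in edgeR's quasi-likelihood test. None of the 10 was called higher, with 1 (CDK4) higher at an unadjusted p under 0.05 and 0 called higher by DESeq2. Among all tested genes, 16.6% were called lower and 17.6% higher. For the same 5 genes, every treated library lay below every untreated library, a pattern shown by 11.9% of tested genes, while 0 of the 10 had all treated libraries above, as 11.7% of tested genes did. The median log2 fold change of the 10 genes was -0.46, against -0.00335 for all tested genes. In such bulk samples, fewer cells in a given cell cycle phase and less RNA per cell cannot be told apart.

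**Figure D1:**
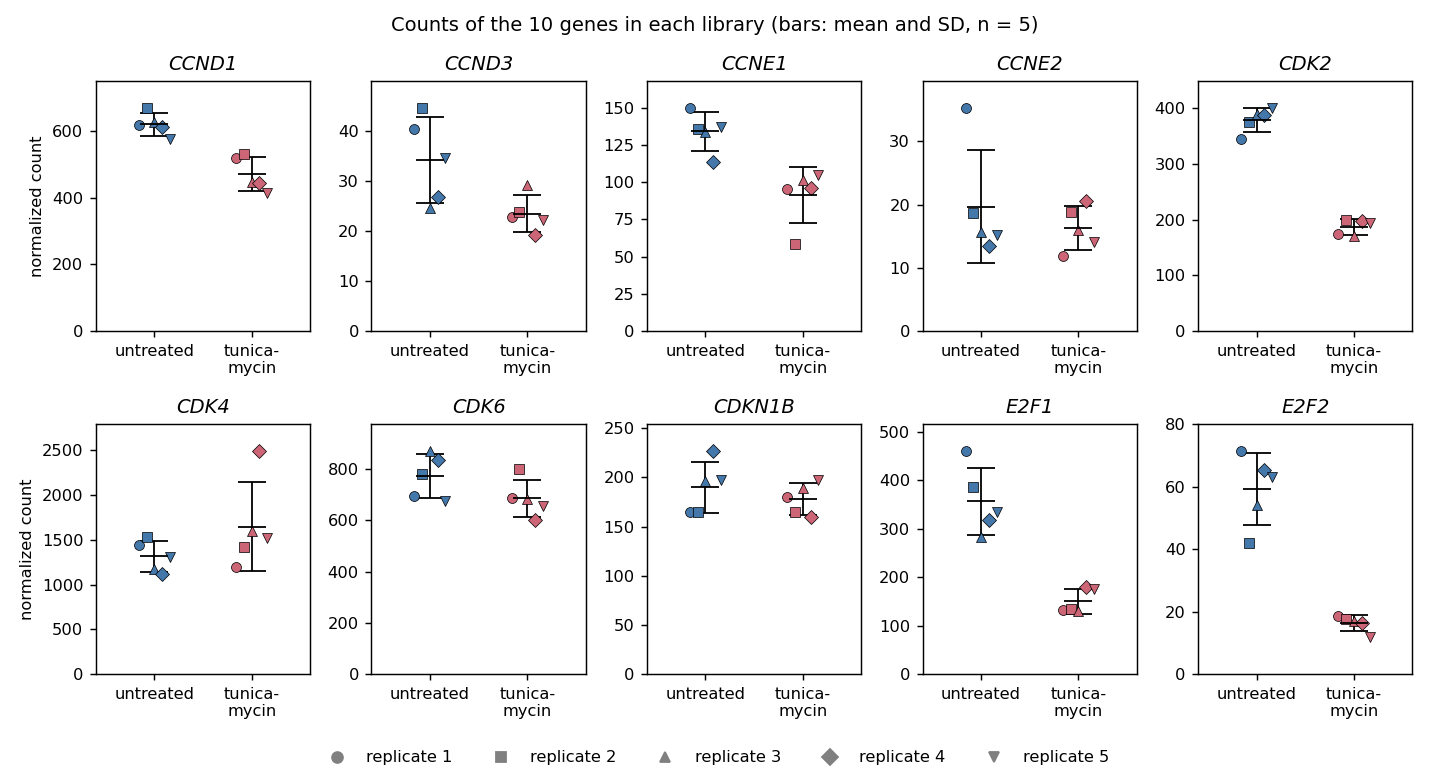
Normalized counts (y axis, linear, from 0) of each of the 10 genes in the 5 untreated (blue) and 5 tunicamycin-treated (red) libraries, with the marker shape giving the replicate and the bars the mean and SD. Both conditions are fully separated for CCND1, CCNE1, CDK2, E2F1 and E2F2 and overlap for the other genes, with one high CDK4 value of 2485 in tunicamycin replicate 4 and one high CCNE2 value of 35.3 in untreated replicate 1.

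Among the cyclins of early G1, CCND1 was by far the more abundant of the pair and fell by a modest amount. CCND1 (ENSG00000110092, chr11:69641156-69654474, plus strand, GRCh38) encodes cyclin D1, the partner of CDK4 and CDK6 that responds to growth signals. Its normalized counts in untreated replicates 1 to 5 were 616, 669, 626, 610 and 575, and in treated replicates 519, 530, 448, 445 and 414. The lowest untreated library thus lay above the highest treated library. The mean went from 619 ± 33.6 to 471 ± 50.8 (SD, n = 5), or 23.7% lower, with a log2 fold change of -0.39 (SE 0.09, 95% interval -0.58 to -0.20) and an adjusted p of 0.00223 in edgeR's test. Within each of the 5 replicate pairs the treated library was lower, with log2 ratios of -0.25 to -0.48.

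CCND3 (ENSG00000112576, chr6:41934934-42050357, minus strand) encodes cyclin D3, which can take the place of cyclin D1 in these complexes. Untreated replicates 1 to 5 held 40.5, 44.6, 24.5, 26.9 and 34.6 normalized counts, and treated replicates 22.8, 23.8, 29.3, 19.2 and 22.2. The conditions overlapped, because treated replicate 3 was above untreated replicates 3 and 4. The log2 fold change was -0.52 (SE 0.22, 95% interval -0.99 to -0.05), with an adjusted p of 0.0785 in edgeR's test, and treated libraries were lower in 4 of 5 pairs. Without untreated replicate 3 the log2 fold change was -0.62 and the adjusted p by edgeR 0.0456.

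The remaining D-type cyclin, CCND2, belongs to the wider list of G1/S genes below and had a log2 fold change of 0.23 with an adjusted p of 0.168 in edgeR's test. Of all counts on the D-type cyclins, CCND1 took 74.9% ± 2.71 in untreated and 67.4% ± 2.41 in treated libraries (SD, n = 5), in ranges of 72.0% to 78.9% and 65.0% to 70.8%. CCND2 took 21.0% ± 3.54 and 29.2% ± 2.24, and CCND3 4.14% ± 1.05 and 3.38% ± 0.57. Cyclin D1 thus remained the main D-type cyclin mRNA in both conditions. These shares were computed after the values of the single genes had been seen, and they are given as a description with no test.

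Of the E-type cyclins, which activate CDK2 at the entry into S phase, CCNE1 fell and CCNE2 did not pass the test. CCNE1 (ENSG00000105173, chr19:29811991-29824312, plus strand) encodes cyclin E1. Its normalized counts were 150, 135.5, 134, 114 and 137 in untreated replicates 1 to 5, and 95.4, 58.6, 101, 96.2 and 105 in treated ones. The highest treated value lay just under the lowest untreated value, and treated replicate 2 stood well under the other treated libraries. The mean went from 134 ± 12.9 to 91.2 ± 18.7 (SD, n = 5), or 32.5% lower, with a log2 fold change of -0.57 (SE 0.15, 95% interval -0.88 to -0.26) and an adjusted p of 0.00555 by edgeR. The call was lost when each library was thinned, in a single random draw, to the total of the smallest one. The log2 fold change was then -0.46 and edgeR's adjusted p 0.106.

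CCNE2 (ENSG00000175305, chr8:94879770-94896678, minus strand) encodes cyclin E2, a close relative of cyclin E1. Untreated replicates 1 to 5 held 35.3, 18.7, 15.75, 13.4 and 15.25 normalized counts, and treated replicates 11.8, 18.9, 16.1, 20.6 and 14.1. All treated libraries except replicate 1 fell within the untreated range. The log2 fold change was -0.29 (SE 0.30, 95% interval -0.92 to 0.35), and edgeR's adjusted p was 0.50. Without untreated replicate 1 the log2 fold change was 0.037 (adjusted p 0.942 by edgeR), and with thinned counts it was 0.057, so that its sign was not stable. The last 500 exonic bases of CCNE2 overlap exons of INTS8 on the opposite strand, whose normalized counts went from 23.2 ± 5.39 to 56.6 ± 17.8 (SD, n = 5; adjusted p 0.000576 by edgeR). Whether counting used the strand is not given in the sources used here, and the part of INTS8 reads in the CCNE2 counts was not tested.

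Of the 3 kinases, CDK2 fell by 50.8% of its untreated level, and CDK4 and CDK6, the partners of the D-type cyclins, did not pass the test. CDK2 (ENSG00000123374, chr12:55966781-55972789, plus strand) encodes the kinase bound by cyclins E and A. In untreated replicates 1 to 5 it had 344, 374.5, 388.5, 388 and 399.5 normalized counts, and in treated replicates 174, 199.5, 170, 198 and 194. No untreated library came near the highest treated value. The mean went from 379 ± 21.3 to 187 ± 13.9 (SD, n = 5), or 50.8% lower, and the log2 fold change was -1.02 (SE 0.09, 95% interval -1.22 to -0.83) with an adjusted p of 8.93e-08 in edgeR's test. The fall was of like size in all 5 pairs, with log2 ratios of -0.91 to -1.19.

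CDK4 (ENSG00000135446, chr12:57747727-57756013, minus strand) had the highest count of the 10 genes in both conditions. Its normalized counts were 1438, 1531, 1171, 1116 and 1303 in untreated replicates 1 to 5, and 1190, 1419, 1599, 2485 and 1519 in treated ones. Treated replicate 4 was far above every other library, and the remaining treated values mostly fell within the untreated range. The log2 fold change was 0.32 (SE 0.15, 95% interval 0.01 to 0.64), with an adjusted p of 0.106 by edgeR, and the pairs were split, with 3 higher and 2 lower. It was 0.13 without treated replicate 4 (adjusted p 0.414 by edgeR) and 0.42 without treated replicate 1 (adjusted p 0.0224 by edgeR). Treated replicate 4 also had the highest share of mitochondrial counts, 28.8% against 18.3% to 25.2% in the other libraries, and the lowest scaling factor, 0.892. Their part in its CDK4 count was not tested.

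CDK6 (ENSG00000105810, chr7:92604921-92836573, minus strand) was second in abundance. Its normalized counts in untreated replicates 1 to 5 were 695, 779, 869, 835 and 675, and in treated replicates 686, 800, 682, 600 and 656. The ranges overlapped over most of their width. The log2 fold change was -0.17 (SE 0.10, 95% interval -0.37 to 0.03), with an adjusted p of 0.189 in edgeR's test.

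CDKN1B (ENSG00000111276, chr12:12685498-12722369, plus strand), the gene of p27, showed no detectable difference. Untreated replicates 1 to 5 had 164, 165, 196, 227 and 197 normalized counts, and treated replicates 180, 165, 189, 159 and 198. All treated values except the lowest fell within the untreated range, whose highest library, replicate 4, lay above every treated one. The log2 fold change was -0.09, and its 95% interval of -0.33 to 0.15 excludes a fall as large as that of CDK2 (SE 0.11, adjusted p 0.560 by edgeR).

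E2F1 and E2F2 had the largest falls of the 10 genes. E2F1 (ENSG00000101412, chr20:33675477-33686385, minus strand) encodes the activator E2F that also induces its own gene. Its normalized counts in untreated replicates 1 to 5 were 460.5, 387, 284, 318 and 334, and in treated replicates 132, 135, 130, 180 and 175.5. The lowest untreated library held over 100 normalized counts more than the highest treated one. The mean went from 357 ± 68.8 to 151 ± 24.97 (SD, n = 5), or 58.4% lower, with a log2 fold change of -1.26 (SE 0.14, 95% interval -1.55 to -0.98) and an adjusted p of 9.70e-07 in edgeR's test. Only 2.84% of tested genes had a lower log2 fold change.

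E2F2 (ENSG00000007968, chr1:23506438-23531233, minus strand) encodes a related activator. Untreated replicates 1 to 5 had 71.4, 41.9, 54.2, 65.4 and 63.0 normalized counts, and treated replicates 18.6, 17.9, 17.0, 16.5 and 12.1. Every treated library lay far below the lowest untreated one. The mean went from 59.2 ± 11.5 to 16.4 ± 2.53 (SD, n = 5), or 71.4% lower, with a log2 fold change of -1.81 (SE 0.21, 95% interval -2.24 to -1.38) and an adjusted p of 1.67e-06 by edgeR. Of the tested genes, 0.880% had a lower log2 fold change. The treated values rest on 6 to 22 reads per library before scaling.

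E2F3, the remaining activator of the family and part of the wider list below, had a log2 fold change of 0.25 with an adjusted p of 0.152 in edgeR's test, and of 0.35 with an adjusted p of 0.0498 without untreated replicate 4. With the single draw of thinned counts it was called higher as well, at 0.38 and an adjusted p of 0.0445 by edgeR. Of all counts on E2F1, E2F2 and E2F3, E2F3 took 33.1% ± 7.42 in untreated and 59.2% ± 3.93 in treated libraries (SD, n = 5), in ranges of 20.9% to 39.7% and 52.3% to 62.2%. E2F1 took 57.4% ± 7.56 and 36.7% ± 4.16, and E2F2 9.56% ± 1.64 and 4.07% ± 0.89. The most abundant activator mRNA was thus E2F1 in untreated cells by its mean share and E2F3 in treated cells. These shares, too, were computed after the values of the single genes had been seen and carry no test.

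The E2F1 and E2F2 promoters are shown because E2F factors are known to bind promoters of E2F genes, and these were the 2 genes that fell most. Each sequence is the 250 bases before the annotated start in RefSeq (GRCh38.p14), on the gene's strand and read 5′ to 3′. Capitals mark matches on either strand to the 4 E2F words TTTCCCGC, TTTCGCGC, TTTGCCGC and TTTGGCGC. The CCNE1 promoter, that of a gene that fell less, is given beside them and held no exact match to these words. These promoters were chosen with fold changes and matches known, so a link between matches and falls was not tested.
E2F1 promoter, chr20:33686386-33686635, minus strand: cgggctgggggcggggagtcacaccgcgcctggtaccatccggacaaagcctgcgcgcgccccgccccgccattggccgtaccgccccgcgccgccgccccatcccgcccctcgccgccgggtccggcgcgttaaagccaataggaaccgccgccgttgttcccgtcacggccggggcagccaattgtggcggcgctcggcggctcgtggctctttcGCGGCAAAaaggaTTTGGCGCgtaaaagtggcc
E2F2 promoter, chr1:23531234-23531483, minus strand: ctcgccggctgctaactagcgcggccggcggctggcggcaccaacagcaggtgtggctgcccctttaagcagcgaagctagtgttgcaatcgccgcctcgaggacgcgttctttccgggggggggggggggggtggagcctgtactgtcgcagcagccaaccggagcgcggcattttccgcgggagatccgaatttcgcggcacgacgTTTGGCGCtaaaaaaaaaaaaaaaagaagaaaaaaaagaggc
CCNE1 promoter, chr19:29811741-29811990, plus strand: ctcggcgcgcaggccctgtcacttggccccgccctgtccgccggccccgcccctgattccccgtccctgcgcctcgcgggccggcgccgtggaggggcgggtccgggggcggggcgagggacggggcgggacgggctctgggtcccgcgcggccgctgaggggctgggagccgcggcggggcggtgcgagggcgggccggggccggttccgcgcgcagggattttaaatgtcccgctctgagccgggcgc
In the E2F1 promoter, TTTGCCGC was found on the opposite strand 33 bases upstream of the start and TTTGGCGC on the gene's strand 20 bases upstream. The E2F2 promoter held TTTGGCGC 42 bases upstream of the start.

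Promoters were found for 7 of the 10 genes, those of CCND3, CCNE1, CDK4, CDK6, CDKN1B, E2F1 and E2F2, and 2 of the 7, E2F1 and E2F2, held an E2F word. Of 35116 single RefSeq promoters of this length, 2.79% held one, whereas a gene was counted if any of its promoters did. The word TGATGCAA, which is bound by ATF4 with C/EBP partners in the stress response, was found in 0 of the 7 and in 0.772% of all promoters. Matches describe the letters of these windows only and say nothing of binding in these cells.

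The balance between related genes was compared within each library as a log2 ratio of their counts, for 5 ratios, by an exact two-sided permutation test with Benjamini-Hochberg adjustment over the 5. The CDKN1B to CDK2 ratio rose from -1.004 ± 0.149 to -0.071 ± 0.208 (mean log2 ± SD, n = 5, exact permutation p = 0.00794, the smallest that 5 against 5 allow, adjusted p = 0.0397). On a linear scale, there were 0.499 counts of CDKN1B per count of CDK2 in untreated and 0.952 in treated libraries. CDKN1B itself was not called (log2 fold change -0.09) while CDK2 fell (-1.02), so the ratio mainly restates the fall of CDK2. The ratios ran from -1.18 to -0.77 in untreated and from -0.31 to 0.15 in treated libraries, without overlap, and were higher with tunicamycin in all 5 pairs. A sign-flip test over the 5 pairs cannot go below an exact p of 0.0625 and gave an adjusted p of 0.312.

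The E2F1 to E2F2 ratio was 2.59 ± 0.37 in untreated and 3.15 ± 0.41 in treated libraries (mean log2 ± SD, n = 5), a difference of 0.56 that did not pass the test (exact permutation p = 0.0556, adjusted p = 0.139). Without untreated replicate 2 the difference was 0.71 and the exact permutation test gave an adjusted p of 0.0397. The CDK4 to CDK6 ratio differed by 0.46 (exact permutation adjusted p = 0.172), the CCNE1 to CCNE2 ratio by -0.39 (adjusted p = 0.298) and the CCND1 to CCND3 ratio by 0.10 (adjusted p = 0.611). Single libraries moved these values: the CDK4 to CDK6 difference was 0.25 without tunicamycin replicate 4, the CCNE1 to CCNE2 difference was -0.18 without tunicamycin replicate 2, and the CCND1 to CCND3 difference ran from 0.027 to 0.22 as each library was left out. For the 4 ratios other than CDKN1B to CDK2 the conditions overlapped. A p above the threshold in so few libraries does not show that a balance was kept.

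**Figure D2:**
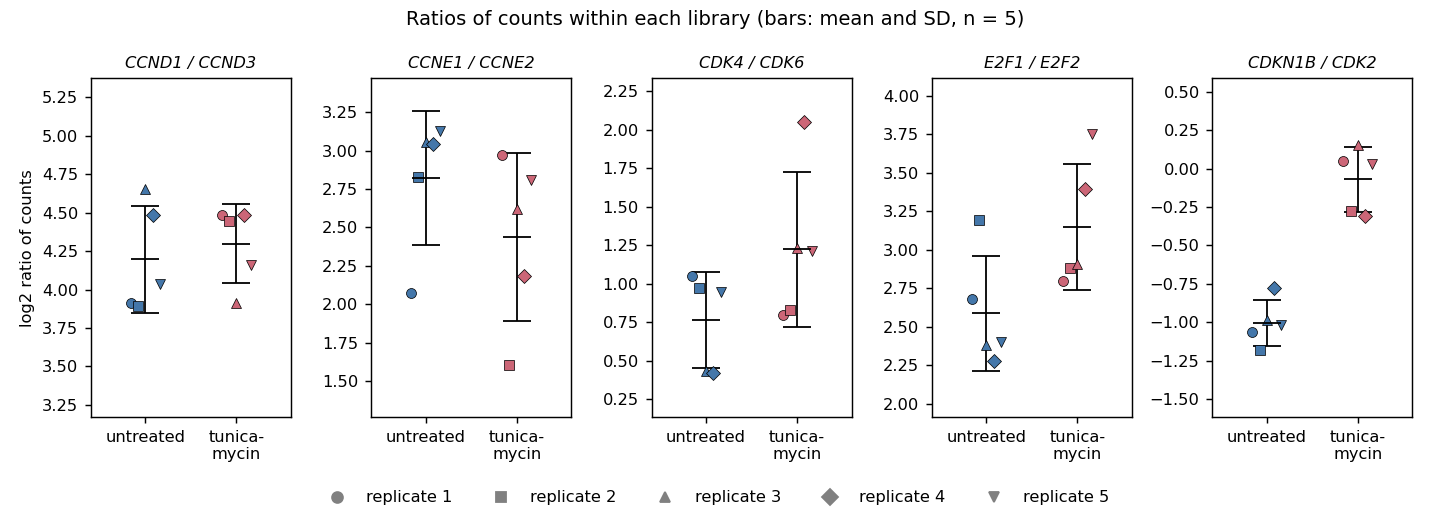
Log2 ratio of counts before scaling, with a pseudocount of 0.5 (y axis), for 5 pairs of related genes in each of the 5 untreated and 5 tunicamycin-treated libraries. The marker shape gives the replicate and the bars the mean and SD. The y axes differ between panels and do not start at 0. The CDKN1B to CDK2 ratio was higher with tunicamycin in all 5 pairs, with means of -1.004 and -0.071, and the other 4 ratios overlapped between conditions.

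By count, the order of the 10 genes in untreated cells was CDK4, CDK6, CCND1, CDK2, E2F1, CDKN1B, CCNE1, E2F2, CCND3 and CCNE2. The ranges of neighbours overlapped for CDK2 and E2F1, with CDK2 above in 3 of 5 libraries, for E2F2 and CCND3, with E2F2 above in 4 of 5, and for CCND3 and CCNE2, although CCND3 was above in each of the 5. With tunicamycin the first 4 places were unchanged, CDKN1B stood above E2F1, and E2F2 fell to ninth place. CDK2, CDKN1B and E2F1 were then neighbours whose ranges overlapped, with CDK2 above CDKN1B in 2 of 5 libraries and CDKN1B above E2F1 in 4 of 5. E2F2 and CCNE2, the lowest, overlapped as well, with E2F2 above in 2 of 5. The summed normalized counts of the 10 genes ranged from 3714 to 4146 in untreated and from 3030 to 4220 in treated libraries, and CDK4 was the largest single part of the sum.

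The wider machinery was examined with a list of 36 other G1/S control genes, of which 34 were tested, 9 were higher, 10 were lower and 15 were not called in edgeR's test. Their median log2 fold change was -0.10 and their range -1.68 to 2.53. Of all tested genes, 17.6% were higher and 16.6% were lower, so calls in both directions are not particular to the list. The INK4 inhibitors, which bind CDK4 and CDK6 and keep D-type cyclins out, were divided. CDKN2B (p15) rose by 2.53 on the log2 scale, from 3.22 ± 1.77 to 19.6 ± 3.87 normalized counts (SD, n = 5; adjusted p 5.70e-05 by edgeR), on at most 6 reads in any untreated library. CDKN2A, whose locus encodes p16 and p14ARF, rose by 1.15, from 55.8 to 125 (adjusted p 5.66e-05 by edgeR), and counts cannot tell its products apart. CDKN2C (p18) fell by 0.97, from 78.6 to 39.4 (adjusted p 0.00111 by edgeR), and CDKN2D was not called.

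CCNH and CDK7, the cyclin and kinase of the CDK-activating complex, rose by 1.97 and 1.18 on the log2 scale, CCNH from 35.5 ± 10.1 to 142 ± 60.2 normalized counts and CDK7 from 63.8 to 146 (adjusted p 2.27e-05 and 2.44e-05 by edgeR). MNAT1, the assembly factor of the same complex, was not called. Among the E2F family, the repressors E2F7 and E2F8 fell by 1.68 and 1.66, from 27.8 to 8.78 and from 25.9 to 8.97 (adjusted p 0.000417 and 0.000493 by edgeR), whereas E2F4 and E2F5, which work mainly with pocket proteins in repression, were called higher and E2F3 and E2F6 were not called. E2F6 was called higher with the replicate number as a block in the fit, at a log2 fold change of 0.29 and an adjusted p of 0.0437 by edgeR. Of the retinoblastoma family, RBL1 (p107) fell by 1.05, from 226 to 108 (adjusted p 9.78e-07 by edgeR), RB1 was called higher and RBL2 was not called. The RB1 call was lost with tunicamycin libraries 4 and 5 both left out, at a log2 fold change of 0.66 and an adjusted p of 0.0552 by edgeR.

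MYBL2 (B-MYB), a transcription factor for later cell cycle genes, fell by 1.18, from 650 to 286 normalized counts (adjusted p 4.40e-07 by edgeR). SKP2, the ubiquitin ligase subunit that targets p27 for degradation, fell by 0.92, from 256 to 137 (adjusted p 1.90e-05 by edgeR), while CKS1B, its cofactor, was called higher. The other calls were FBXO4, higher, and CDC25A, AMBRA1, TFDP2 and CDKN1A (p21), lower. FBXO4 lost its call in 11 of 19 alternative analyses and AMBRA1 in 4. CDKN1A was thus called lower while CDKN1B, of the same inhibitor family, was not called, and the difference between them was not tested.

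**Figure D3:**
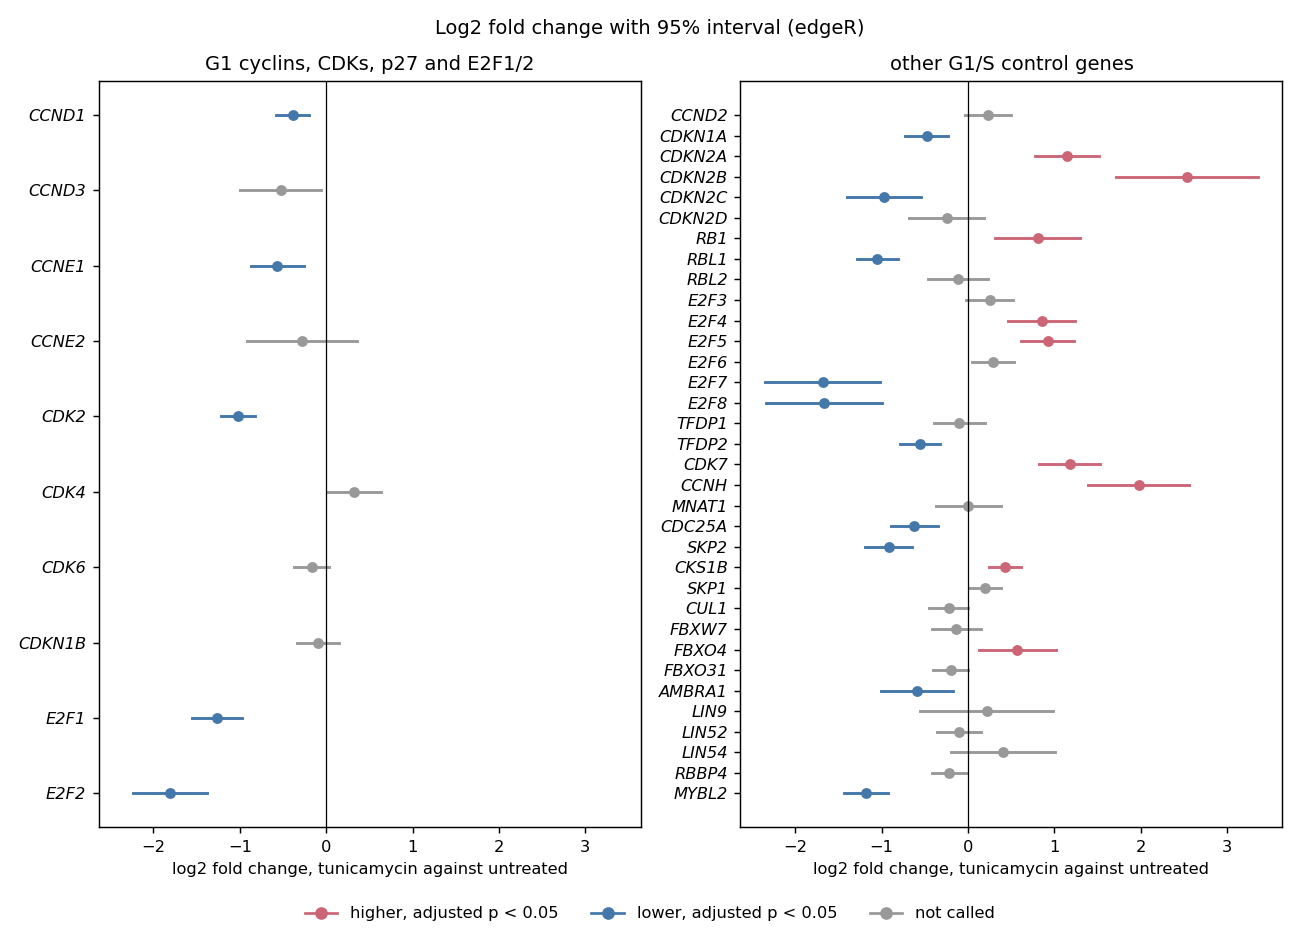
Log2 fold change (tunicamycin against untreated, x axis) with its 95% interval from edgeR's quasi-likelihood fit for the 10 genes (left) and the 34 tested genes of the wider G1/S list (right), in red where higher, blue where lower and grey where not called at an adjusted p of 0.05. On the left E2F2, E2F1, CDK2, CCNE1 and CCND1 are blue, at -1.81, -1.26, -1.02, -0.57 and -0.39, and 0 genes are red, whereas the right panel holds 9 red and 10 blue genes.

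Known E2F target genes fell together with E2F1 and E2F2. Of 31 genes on the list, 30 were tested, of which 27 were lower, 0 were higher and 3 (CDC45, PRIM1 and SLBP) were not called, by edgeR, with 0 higher also at an unadjusted p under 0.05 and with DESeq2. Of all tested genes, 16.6% were lower and 17.6% higher. With the replicate block, SLBP was called higher, at a log2 fold change of 0.47 and an adjusted p of 0.0192 by edgeR. The median log2 fold change of the 30 genes was -1.04, against -0.00335 for all tested genes. The lowest values were those of 3 DNA replication genes: MCM5, a subunit of the replicative helicase, at -1.97 (446 to 113 normalized counts), GINS2, a helicase cofactor, at -1.58 (108 to 36.4), and CDT1, which loads the helicase, at -1.55 (200 to 69.3). The smallest falls that were called were those of EZH2 (-0.38, adjusted p 0.0113 by edgeR), TYMS (-0.41, adjusted p 0.00575) and CDC6 (-0.46, adjusted p 0.00371). The last 500 exonic bases of TYMS overlap exons of ENOSF1 on the opposite strand, whose log2 fold change was -0.09. The part of ENOSF1 reads in the TYMS counts was not tested. EZH2 was not called with tunicamycin libraries 4 and 5 both left out, at -0.24 and an adjusted p of 0.110 by edgeR. Of 28 list genes with a promoter in RefSeq, 12 held an E2F word of the kind marked above in any of their promoters. The other G1/S genes did so in 5 of 32. Of all single promoters 2.79% held one, a share per promoter and not per gene. The list was chosen as known E2F targets, so its share of such words is no result of these data. A group of 3 genes of this list, RBL1, MYBL2 and CDC25A, is also among the other G1/S genes. CCNA2 and CDK1 are also among the S, G2 and M genes below, so their falls are counted in both lists.

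For the S, G2 and M cyclins, CDK1 and its phosphatases, 6 of 7 genes were lower and 0 higher in edgeR's test, with 0 higher also at an unadjusted p under 0.05 and 5 lower and 0 higher with DESeq2, where 16.6% of all tested genes were lower and 17.6% higher. Their log2 fold changes ran from -0.93 to -0.16, with a median of -0.50, and CCNB1 was not called. CCNF fell by 0.93 on the log2 scale, from 174 to 91.1 normalized counts, and CDC25C by 0.80, from 135 to 77.0 (adjusted p 2.21e-05 and 0.000154 by edgeR). CCNB2, at an adjusted p of 0.0492 by edgeR, kept its call in only 5 of 19 alternative analyses.

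Across all 10 libraries, the 3 genes that fell most were correlated with one another in log2 normalized counts. Pearson's r was 0.923 for CDK2 and E2F1, 0.941 for CDK2 and E2F2 and 0.890 for E2F1 and E2F2. After the mean of each condition was subtracted, the values were -0.0615, -0.273 and -0.198. The positive correlations were thus seen across conditions and not within them. Counts of the same library share its scaling, and these values are given as a description.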

How the data were processed

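The 10 libraries of HepG2 RNA, 5 untreated and 5 tunicamycin-treated, were analysed as a single comparison. The authors prepared 3′ mRNA libraries, mapped the reads to hg19 with the nf-core RNA-Seq pipeline at default settings and Ensembl transcript definitions, and deposited raw counts per gene, without normalization. The aligner, counter and strand setting are not given in the sources used here. All sample columns were matched by name to their labels, and 0 were left out.

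Genes were filtered with edgeR's filterByExpr (minimum count 2, minimum total 10) and TMM scaling was applied. The condition was the single term of the quasi-likelihood model (edgeR 4.0.16 in R 4.3.3), with Benjamini-Hochberg adjustment over the 12733 tested genes at 0.05. Normalized counts are counts per effective library size, brought to the mean effective size. Ratios within libraries and pairs used a pseudocount of 0.5. With 3 counts as the limit of detection, the depth corresponds to 2.53 to 6.05 normalized counts, covering counting error only. The scripts were tested on simulated data.

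The series describes replicate experiments on separate days, so a replicate number was taken to mark libraries of 1 day. Over 10736 genes, deviations of paired libraries from their group means correlated at 0.317, 0.0171, 0.0391, 0.122 and 0.0864 for replicates 1 to 5. The fold changes of the 10 genes and the counts of calls in each list were recomputed with DESeq2 1.42.0, DESeq2's size factors, library size only, no filter, filterByExpr's default minimums, the replicate block, thinned counts, mitochondrial genes removed, each library left out, and tunicamycin libraries 4 and 5 left out. Ratios were recomputed with a pseudocount of 1, with a paired sign-flip test and with each library left out. Shares, orders and correlations were computed once. Counts were thinned in a single random draw, so the spread between draws was not measured.

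The 10 genes and the lists were chosen with earlier results of these data known. All 10 are described in full. Of the other G1/S genes, the 10 called ones with the largest changes are given with values, of E2F targets the 3 lowest and 3 highest called, and of the S, G2 and M genes the 2 with the largest change. CCND2, E2F3, CCNB2, ENOSF1, and the p-values of RB1 and INTS8 were added after their values were seen. Where a gene's mean was 20 normalized counts or more, the 2 genes most alike over the libraries are given. Positions were looked up by Ensembl identifier in the GENCODE annotation of GRCh38, since the hg19 annotation was not used here.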

Additional observations from a re-analysis of the deposited data

Results flagged for a closer look

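In 3 of 36 groups of 5 libraries, 1 library stood far from the other 4, where chance gives about 1.8. CCNE1 had 58.6 normalized counts in tunicamycin replicate 2, against 95.4 to 105 in the other treated libraries. CCNE2 had 35.3 normalized counts in untreated replicate 1, against 13.4 to 18.7 in the other untreated libraries. The log2 ratio of CCNE1 to CCNE2 was 2.07 in the same untreated library, against 2.83 to 3.13 in the others, and it shares the high CCNE2 count.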

How the results depend on the processing

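E2F1, E2F2, CDK2 and CCND1 were called lower in all 19 alternatives and CCNE1 in 18, the exception being thinned counts. CCND3 was called lower with library size only (-0.60, adjusted p 0.0479 by edgeR) and without untreated replicate 3. The log2 fold change of CCNE2 turned to 0.057 with thinned counts, and leaving out single libraries gave values from -0.39 to 0.037, the latter without untreated replicate 1. Leaving out single libraries gave 0 to 1 of the 10 genes called higher (CDK4, without tunicamycin replicate 1) and 0 to 1 E2F targets called higher (SLBP, without untreated replicate 4 or tunicamycin replicate 1), and an E2F1 to E2F2 difference of 0.41 to 0.71. With the replicate block, SLBP was called higher, giving 1 E2F target (adjusted p 0.0192 by edgeR), RBBP4 was called lower (adjusted p 0.0354 by edgeR), CCNB2 lost its call (adjusted p 0.0537 by edgeR), and the CDKN1B to CDK2 difference of 0.933 had an adjusted p of 0.312 in a paired sign-flip test that cannot reach 0.05. The block changed no call among the 10 genes, with 5 lower, and over all genes it gave 2499 higher and 2312 lower. Library size only gave 1774 higher and 2570 lower genes, against 2237 and 2116 with TMM. Leaving out tunicamycin libraries 4 and 5 together, chosen after seeing the data, left 5 of the 10 genes lower. Of all 13190 genes tested in that setting, 1667 were lower. With thinned counts, 4 of the 10 genes were called lower, and 1778 of all 12190 genes tested there.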

Other observations

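For each of the 10 genes except CCNE2, which had too few counts, the genes most alike in log2 normalized counts were sought. They were found over the 10 libraries among 9698 candidates, as a description with no test. Counts of the same library share its scaling and, for genes that fell, the difference between conditions. E2F2 was closest to FADS1 (r = 0.992) and AIM1 (r = 0.989), E2F1 to ATP6V0E2 (r = 0.985) and GAMT (r = 0.983), and CDK2 to SLC13A5 (r = 0.994) and APOH (r = 0.994). CCND1 was closest to HIST1H1C (r = 0.984) and NMI (r = 0.983), CCNE1 to PAQR4 (r = 0.964) and COA3 (r = 0.954), and CCND3 to EHD1 (r = 0.958) and MANEAL (r = 0.951). Like CCND3, the genes CDK4, CDK6 and CDKN1B were not called by edgeR's test. Closest to CDK4 were FAF1 (r = 0.971) and RAB11B (r = 0.970). CDK6 was closest to BBS4 (r = 0.950) and TBC1D31 (r = 0.914), and CDKN1B to PHPT1 (r = 0.941) and CAMK2G (r = 0.854).

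The 3′ ends of CCND1 and CDK4 also overlap genes on the opposite strand. LTO1 shares 253 of the last 500 exonic bases of CCND1 and went from 79.2 to 107 normalized counts (adjusted p 0.0625 by edgeR). TSPAN31 shares all 500 of CDK4 and went from 25.96 to 36.8 (adjusted p 0.161 by edgeR). As counted, both had far fewer counts than the gene they overlap. The part of LTO1 and TSPAN31 reads in the CCND1 and CDK4 counts was not tested.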
